A study of Mus musculus with 24 samples.

Results

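The transcriptome of the f1 mouse culture carrying p53 Y202C was compared with that of the f1 culture lacking p53 (p53 KO). The labels call these cells astrocytes. The study assessed astrocyte purity by immunofluorescence for GFAP protein, which it describes for the pooled astrocytes ahead of the virus steps. The RNA here came from the derived lines at passages 10 to 15, so it differs from that stain in cells, stage and measure. In this RNA several defining astrocyte markers were close to absent, as given with their values further on. The comparison rests on 6 of the 24 libraries of the series, 3 per line, chosen by the culture, genotype and replicate number in their labels, and covers all 14427 genes of the count table. The series holds 8 lines, made from 1 female (f1) and 1 male (m1) culture, each with p53 KO, p53 R172H, p53 Y202C or p53 Y217C, with 3 replicates per line. By the labels and methods, the cultures were astrocytes from the cortex of C57BL/6 pups at postnatal day 1, with the cells of at least 3 pups of a sex pooled into a culture. All lines were made from Trp53 f/- cells, with 1 floxed and 1 deleted Trp53 allele, and were grown in DMEM/F12 with fetal bovine serum. RNA was collected between passages 10 and 15.

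The p53 Y202C cells first received a retrovirus that expresses the mutant Trp53 together with eGFP from the vector's promoter, and were sorted for eGFP. They then received a lentivirus carrying Cre and a puromycin resistance gene, and were selected in puromycin. The p53 KO cells received the Cre lentivirus and puromycin without the retrovirus or the eGFP sort. The effect of the mutation, of the retroviral vector and of the sort therefore cannot be told apart. By the study's methods, replicates of in vitro experiments are separate thaws and platings of 1 line, so the p-values measure the spread within that line and not between animals or between independently made lines.

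p53 is a transcription factor that responds to DNA damage and other stress by inducing genes of cell cycle arrest, apoptosis and DNA repair. The missense mutation Y202C lies in its DNA-binding domain. Loss of p53 removes this control, while mutant p53 protein often accumulates and can bind other factors, and such gains of activity are sought by comparing a mutant with KO cells rather than with wild-type cells.

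Total counts in the 6 libraries ranged from 52787288 to 105943244, with all 3 p53 Y202C libraries below the 3 p53 KO libraries. The p53 Y202C replicate 2 stood apart from its fellows, with a chi-square per gene of 52.9 and 57.4 against replicates 1 and 3, compared with 11.8 between replicates 1 and 3 and at most 13.0 among the p53 KO libraries. Its mitochondrial genes held 1.81% of counts, against 2.97% and 2.57% in the other p53 Y202C libraries and 1.45% to 1.57% in p53 KO. Its ribosomal protein genes held 4.94% of counts, against 4.38% and 4.19%. Without this library 9707 genes differed between the lines, and its part in each result is given where leaving it out moved a call.

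Trp53 itself (chromosome 11, 69580359 to 69591873, GRCm38) was read at 51.9, 46.5 and 48.4 CPM (read counts scaled to the library's total with TMM factors) in the p53 KO libraries and at 602, 605 and 572 CPM in the p53 Y202C libraries. The mean of 593 ± 17.95 CPM (SD, n = 3) was the lowest of the 6 mutant lines. The others ranged from 1215 ± 29.5 CPM in m1 p53 Y217C to 3709 ± 162 CPM in f1 p53 Y217C, with 1956 ± 65.4 in f1 p53 R172H, 2287 ± 80.2 in m1 p53 R172H and 2324 ± 104 in m1 p53 Y202C. The m1 p53 Y202C and m1 p53 R172H levels lay within their spread of each other. The m1 p53 KO line was at 50.9 ± 2.75 CPM, also within the spread of f1 p53 KO. These counts are summed over the gene and hold reads from the vector's coding sequence as well as from exons that Cre leaves in place, so they give a level and not a check of the deletion.

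Several defining markers of astrocytes were close to absent from both f1 lines. Gfap, the intermediate filament of mature astrocytes, was at 0.137, 0.0897 and 0.145 CPM in p53 KO and 0.0933, 0.124 and 0.0767 CPM in p53 Y202C. The water channel gene Aqp4 had 0 reads in 5 of the 6 libraries. Aldh1l1 stayed at or below 0.402 CPM in all 6. Gja1, the gap junction gene connexin 43, was read at 215, 238 and 211 CPM in p53 KO and 228, 204 and 225 CPM in p53 Y202C, and Sox9, a glial transcription factor, at 113, 112 and 114 and 88.3, 70.9 and 83.1 CPM. The fibroblast and mural cell list summed to 27386 to 29407 CPM in p53 KO and 37732 to 44479 CPM in p53 Y202C, most of it from the collagen I genes Col1a1 and Col1a2. Of its 12 members, 1 had a mean under 1 CPM in p53 KO and 4 in p53 Y202C. Among the 12 astrocyte markers these numbers were 5 and 3. The cells are therefore named here by culture and genotype.

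In total 9891 of 14427 genes (68.6%) differed between the lines at an adjusted p of at most 0.05 (edgeR's quasi-likelihood test with Benjamini-Hochberg adjustment), 4942 higher (34.3% of all genes) and 4949 lower (34.3%) in p53 Y202C. A log2 fold change above 1 together with that threshold was met by 1349 genes (9.35%), and one below -1 by 920 genes (6.38%). A count of changed genes in a gene list is to be read against these shares. The median log2 fold change over all genes was -0.00163.

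**Figure D1:**
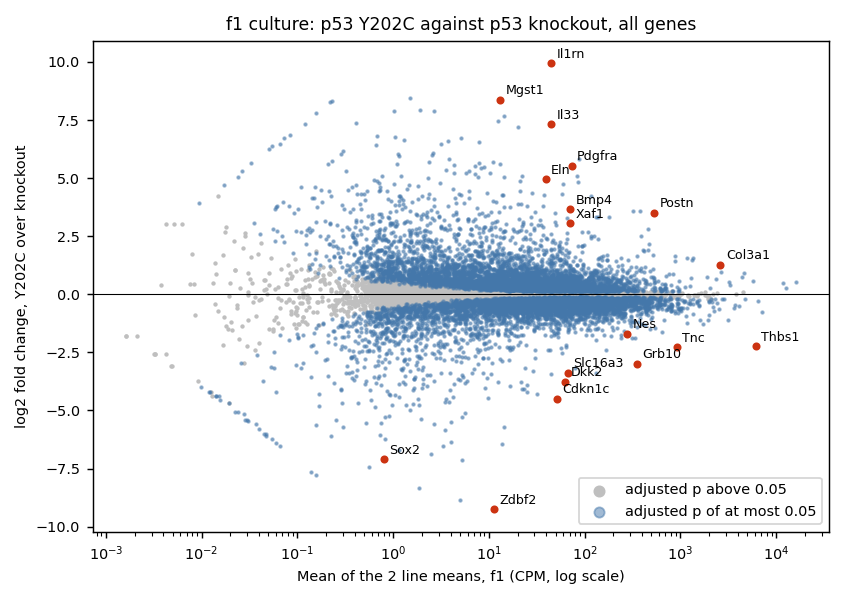
Fold change of each gene between the f1 p53 Y202C and f1 p53 KO lines (log2, vertical axis) against its mean level (CPM, log scale, horizontal axis). Each point is a gene, blue where the adjusted p was at most 0.05 and grey otherwise, and red points are named genes such as Il1rn at 9.95 and Zdbf2 at -9.25. The slanted rows of points at low levels are genes with no reads in 1 of the lines, whose fitted values are not measured folds.

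Interferon-stimulated genes were higher in p53 Y202C throughout. All 24 of the 24 genes tested rose (34.3% of all genes did), 20 of them by a log2 fold change above 1 (9.35% of all genes), with a median of 2.76. Type I interferons signal through a complex of transcription factors, Stat2 and Irf9 among them, which binds the interferon-stimulated response element in the promoters of antiviral genes. That element is recognizable as letters in some of these promoters. The core GAAANNGAA, on either strand, was found in 10 of 20 RefSeq promoters of the list (50%; 17 of the genes had an entry), against 8.56% of all 32851 promoters of the same length of 300 bases and 7.11% of those of the genes tested. The 250 bases before the start sites of Isg15 and Ifit3 (GRCm38.p6, RefSeq; chr4:156200819-156201068, minus strand, and chr19:34583279-34583528, plus strand) are shown because both genes carry repeats of the core, in capitals. Those of Isg15 overlap each other, and those of Ifit3 lie on the opposite strand and so read as the complement.
Isg15: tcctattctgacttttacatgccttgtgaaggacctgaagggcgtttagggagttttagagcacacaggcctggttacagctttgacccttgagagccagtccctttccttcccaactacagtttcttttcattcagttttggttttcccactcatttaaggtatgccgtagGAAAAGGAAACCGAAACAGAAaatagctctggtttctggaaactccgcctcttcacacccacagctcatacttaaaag
Ifit3: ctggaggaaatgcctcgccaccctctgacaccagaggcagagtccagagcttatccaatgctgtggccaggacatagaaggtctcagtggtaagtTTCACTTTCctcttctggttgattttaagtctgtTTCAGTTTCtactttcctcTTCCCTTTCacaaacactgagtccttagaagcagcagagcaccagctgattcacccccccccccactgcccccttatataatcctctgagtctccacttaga

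Isg15, a ubiquitin-like protein, was at 4.26, 4.47 and 4.48 CPM in the p53 KO libraries and 20.4, 24.8 and 27.8 CPM in the p53 Y202C libraries (log2 fold change 2.47 ± 0.20 (SE), adjusted p = 1.72e-10). Ifit3, which binds viral RNA complexes, was at 2.13, 1.64 and 2.17 CPM and 23.5, 22.96 and 33.7 CPM (log2 fold change 3.74 ± 0.24 (SE), adjusted p = 2.83e-12). In each gene the lowest p53 Y202C library was above the highest p53 KO library. Irf7, the transcription factor that amplifies the response, was at 1.14, 0.961 and 1.06 CPM in p53 KO and 13.5, 13.6 and 14.5 CPM in p53 Y202C (log2 fold change 3.71 ± 0.29 (SE), adjusted p = 7.82e-11). Among the signalling factors Stat2 rose by 1.67 ± 0.09 (log2, ± SE) and Irf9 by 1.56 ± 0.10. Xaf1, an antagonist of apoptosis inhibitors, went from 13.6, 15.3 and 15.97 CPM to 128, 105.1 and 142 CPM, which was the largest rise of the list in CPM.

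The largest fold changes of the list belonged to genes that were barely read in p53 KO. Mx1, a GTPase that blocks viral replication, was at 0.0687, 0.0769 and 0.0773 CPM in p53 KO and 1.42, 1.31 and 2.1995 CPM in p53 Y202C (log2 fold change 4.46 ± 0.46 (SE), adjusted p = 1e-08), and Oas2, which makes the activator of an antiviral RNase, at 0.0589, 0.0256 and 0.0773 and 0.989, 0.556 and 1.33 CPM (log2 fold change 4.07 ± 0.38 (SE), adjusted p = 3.31e-09). Mx2 rose by 3.99 ± 0.32. The smallest rises were those of Ifit2, at 0.23, and Irf1, at 0.28. Summed over the list, the p53 KO libraries held 185 to 193 CPM and the p53 Y202C libraries 562 to 699 CPM. The 5 lines other than these and f1 p53 R172H had means from 199 to 239.9 CPM, and f1 p53 R172H had 3082 ± 502 CPM (SD, n = 3).

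**Figure D2:**
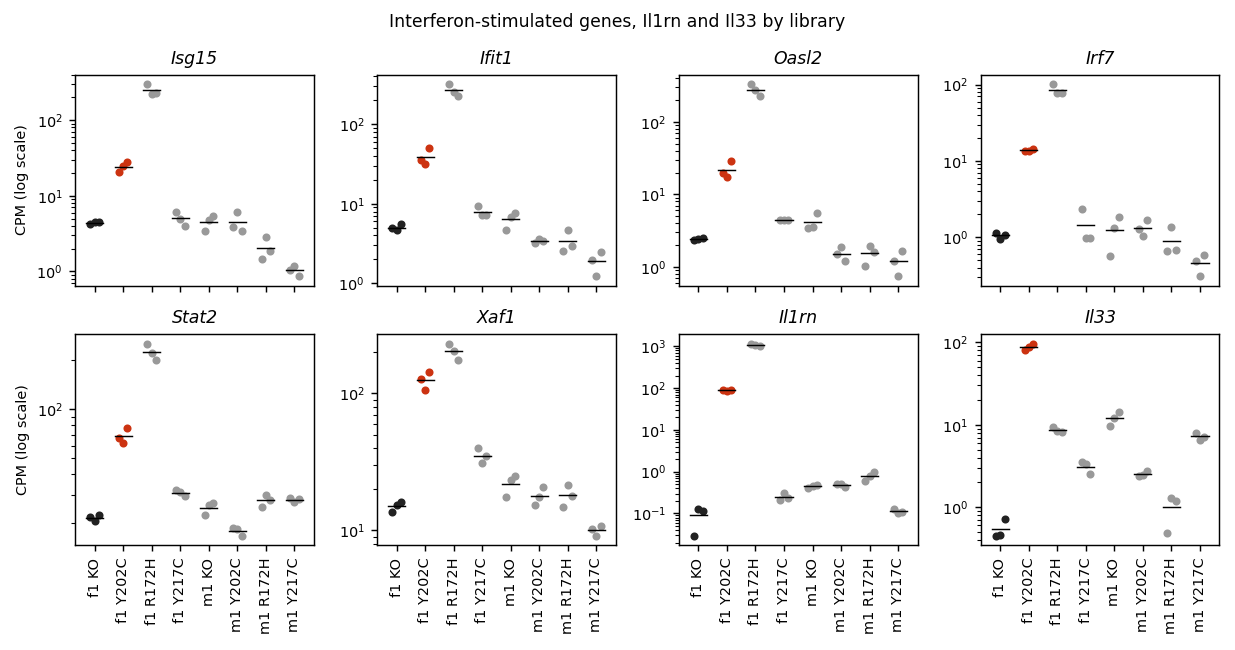
Level of 8 genes in each library (CPM, log scale) by line, with 3 points per line and a bar at their mean; red points are f1 p53 Y202C and black points f1 p53 KO. In the 6 interferon-stimulated genes and Il1rn the f1 p53 Y202C libraries lie above all libraries but those of f1 p53 R172H, while in Il33 they lie above those too, at 81.3 to 96.0 CPM against a mean of 8.64.

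Cytokines and chemokines were higher in p53 Y202C in 17 of 20 genes and lower in 1, with a median log2 fold change of 1.36, and 12 of the genes rose by a log2 fold change above 1. Il1rn, the antagonist of the interleukin-1 receptor (chromosome 2, 24336853 to 24351494), had the largest rise of any gene that the naming rule picks, from 0.0295, 0.128 and 0.116 CPM to 89.6, 85.6 and 91.6 CPM (log2 fold change 9.95 ± 0.15 (SE), adjusted p = 4.94e-24). Il33, an alarmin of the interleukin-1 family, went from 0.452, 0.461 and 0.715 CPM to 81.3, 88.5 and 95.96 CPM (log2 fold change 7.33 ± 0.23 (SE), adjusted p = 4.06e-18). No p53 KO library came near the p53 Y202C libraries in either gene. Among the chemokines Ccl20 rose by 4.34 ± 0.31, the neutrophil attractants Cxcl5 by 4.28 ± 0.17 and Cxcl1 by 3.01 ± 0.14, and Ccl7 by 2.03 ± 0.10. Il6 went from 0.815, 0.935 and 0.888 CPM to 3.84, 3.09 and 3.07 CPM (log2 fold change 1.92 ± 0.22 (SE), adjusted p = 4.8e-08). Tnfrsf11b, the decoy receptor osteoprotegerin, was the member that fell, by 1.45-fold. None of the 3 Il1rn promoters held the interferon core in the 250 bases before the start site.

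Antigen presentation by MHC class I moved unevenly. Of 17 genes tested, 11 rose and 4 fell, and the median was 0.47. The peptide loading genes Tap1 (log2 fold change 1.26), Tap2 (0.98) and Tapbp (1.51) and the nonclassical H2-T23 (1.98) were among those that rose. The classical heavy chains H2-K1 (log2 fold change -0.36, adjusted p = 0.00623) and H2-D1 (-0.36, adjusted p = 0.00295) fell, as did Nlrc5, their transactivator, from 2.05, 2.29 and 2.42 CPM to 1.08, 1.16 and 1.25 CPM. The H2 genes are near copies of each other, so reads assigned to 1 of them are uncertain, and exons of Tapbp overlap those of other genes over 29.0% of its length.

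Genes of DNA replication were lower in p53 Y202C. Of 24 tested, 22 fell and 0 rose, at a median log2 fold change of -0.59 (34.3% of all genes fell). At an unadjusted p under 0.05, 23 were lower and 0 higher, and 0 were higher by limma or by DESeq2. The origin recognition genes Orc1 and Orc6 fell most, Orc1 from 10.3, 10.4 and 10.6 CPM to 4.46, 3.11 and 3.79 CPM (log2 fold change -1.47 ± 0.14 (SE), adjusted p = 2.61e-09) and Orc6 from 77.4, 77.5 and 74.4 CPM to 28.5, 29.05 and 27.5 CPM (log2 fold change -1.43 ± 0.07 (SE), adjusted p = 1.36e-14). Pole, the leading strand polymerase, fell by 2.31-fold. The helicase genes Mcm2 to Mcm7 fell by log2 fold changes between -0.9957 (Mcm5) and -0.34 (Mcm6). Gins2 and Rfc4 did not pass the threshold, at -0.17 and -0.15.

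E2F factors are known to drive many replication genes through a short GC-rich site. The forms TTTGGCGC and TTTCCCGC, on either strand, were found in 9 of 24 promoters of the list (37.5%, 20 genes with an entry), against 1.57% of all promoters and 2.81% of those of the genes tested. Orc1 and Orc6, which fell most, were among the genes without a match to these forms in their window. Other forms of the site were not searched, so the lack of a match does not show that a site is missing. The upstream 250 bases of Mcm5 (chr8:75109259-75109508, plus strand) and Mcm6 (chr1:128359706-128359955, minus strand) are shown with these forms in capitals, since these helicase genes stood at the ends of the range above, and Mcm5 held 1 match and Mcm6 held 2.
Mcm5: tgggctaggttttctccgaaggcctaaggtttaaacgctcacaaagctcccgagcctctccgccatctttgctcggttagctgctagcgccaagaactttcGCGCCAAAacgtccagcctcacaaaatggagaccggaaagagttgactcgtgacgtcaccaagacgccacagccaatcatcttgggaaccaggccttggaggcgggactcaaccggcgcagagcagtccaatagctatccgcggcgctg
Mcm6: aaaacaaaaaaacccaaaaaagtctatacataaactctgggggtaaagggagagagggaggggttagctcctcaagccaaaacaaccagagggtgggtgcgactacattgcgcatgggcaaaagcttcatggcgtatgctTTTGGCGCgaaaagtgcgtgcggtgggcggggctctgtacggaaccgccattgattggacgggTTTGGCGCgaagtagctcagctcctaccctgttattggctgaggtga

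Genes of mitosis followed the same direction, with 23 of 24 lower, 0 higher (also 0 at an unadjusted p under 0.05, by limma and by DESeq2) and a median of -0.58. Kif23, a kinesin of the central spindle, was at 141, 141 and 129 CPM in p53 KO and 69.2, 61.1 and 60.7 CPM in p53 Y202C (log2 fold change -1.10 ± 0.08 (SE), adjusted p = 2.53e-11), and Cdc20, an activator of the anaphase-promoting complex, at 126, 126 and 122 and 58.7, 70.1 and 53.5 CPM. The proliferation marker Mki67 was at 465, 439.7 and 415 CPM and 337, 232 and 306 CPM (log2 fold change -0.59 ± 0.14 (SE), adjusted p = 0.000611), where the p53 Y202C replicate 2 was the lowest. Mad2l1, of the spindle checkpoint, did not pass (-0.08, adjusted p = 0.427). None of the 20 mitosis promoters held the E2F forms above. In bulk RNA, fewer dividing cells and less of these transcripts in each cell cannot be told apart.

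Among cyclins, cyclin-dependent kinases, their inhibitors and the Rb family, 15 of 20 were lower and 3 higher. Ccnd1 (cyclin D1) was at 361, 356 and 343 CPM in p53 KO and 151, 165 and 158 CPM in p53 Y202C, and its partner Cdk6 fell by 2.33-fold. The inhibitor Cdkn1c (p57) fell by 22.6-fold, from 87.2, 99.6 and 108 CPM to 4.83, 4.25 and 4.02 CPM (log2 fold change -4.50 ± 0.15 (SE), adjusted p = 1.3e-17), and Cdkn2a fell by 1.53-fold. Cdkn1b (p27), Cdkn2b (p15) and Rb1 were the members that rose, Cdkn1b from 64.1, 60.5 and 58.5 CPM to 118, 104 and 123 CPM. The call of Rb1 (0.33, adjusted p = 0.0116) was lost without p53 Y202C replicate 1 (adjusted p = 0.0613) or replicate 3 (adjusted p = 0.0572). An antisense gene overlaps 30.7% of the exon length of Cdkn1c and another gene 23.4% of that of Ccnd1, and the strand setting of the counting is not given in the sources used here.

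Known p53 target genes split in direction. Of 30 tested, 10 rose and 14 fell (34.3% of all genes in each direction). The median log2 fold change was -0.08 beside -0.00163 over all genes. Pmaip1 (Noxa), a trigger of apoptosis, fell most, from 47.03, 47.8 and 45.998 CPM to 3.62, 2.66 and 3.299 CPM (log2 fold change -3.88 ± 0.13 (SE), adjusted p = 7.64e-18). Cdkn1a (p21), the inhibitor of the cell cycle that p53 induces, fell from 16.4, 16.8 and 17.1 CPM to 8.96, 7.73 and 8.798 CPM (log2 fold change -0.98 ± 0.08 (SE), adjusted p = 1.97e-10), and Perp and Gdf15 by 3.596-fold and 2.59-fold. Mdm2, the negative regulator of p53, was lower by 1.16-fold. Dcxr rose by 2.01 ± 0.17, the death receptor Fas by 1.57 ± 0.13 and Sesn1 by 1.19 ± 0.09. Bbc3 (Puma), Zmat3, Sesn2, Polk, Apaf1 and Ercc5 did not pass the threshold.

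**Figure D3:**
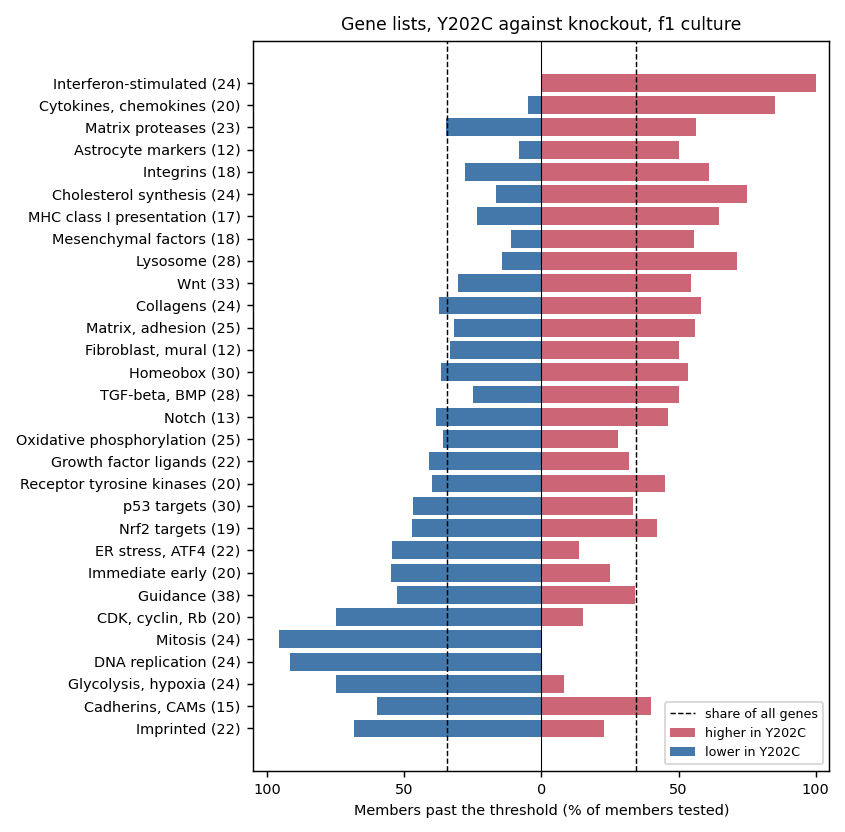
Share of the members of 30 gene lists that passed the threshold in f1 p53 Y202C against f1 p53 KO, higher to the right and lower to the left (percent of members tested, whose number follows each name). Lists are ordered by their median fold change and dashed lines mark the share of all genes, 34.3% on each side; the interferon list reaches 24 of 24 on the right, and the mitosis and DNA replication lists 23 and 22 of 24 on the left.

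The extracellular matrix differed gene by gene. Of 24 collagen genes, 14 rose and 9 fell, and of 25 other matrix and adhesion genes 14 rose and 8 fell. Col23a1, a collagen of cell membranes, went from 0.402, 0.269 and 0.241 CPM to 11.3, 12.6 and 12.9 CPM (log2 fold change 5.32 ± 0.23 (SE), adjusted p = 1.04e-15). The fibrillar collagen Col3a1 rose by 2.42-fold to 3431, 3972 and 3754 CPM, Col6a1 by 2.78-fold and Col6a2 by 3.11-fold, while the basement membrane collagens Col4a1 and Col4a2, which share a promoter, fell by 2.12-fold and 2.13-fold. Postn (periostin) went from 78.5, 90.6 and 88.1 CPM to 949, 920.1 and 1074 CPM (log2 fold change 3.52 ± 0.15 (SE), adjusted p = 1.07e-15), and the laminin chain Lama1 from 2.07, 1.93 and 2.11 CPM to 23.5, 25.7 and 21.6 CPM. Thbs1 (thrombospondin 1), the third most abundant gene of the p53 KO line, went from 9866, 10636 and 10169.8 CPM to 2239.7, 2049 and 2209 CPM (log2 fold change -2.24 ± 0.08 (SE), adjusted p = 6.6e-17), and Tnc (tenascin C) from 1530.5, 1573 and 1476 CPM to 309, 319.6 and 320.3 CPM (log2 fold change -2.27 ± 0.07 (SE), adjusted p = 4.4e-18). Eln (elastin) stood at 2.37, 2.75 and 2.23 CPM and 63.1, 84.9 and 80.2 CPM. The fibroblast and mural list was also higher in sum in p53 Y202C, as given above. It shares Col1a1, Col1a2 and Col3a1 with the collagen list, and Dcn and Lum with the other matrix list. Its sum is therefore not separate from these matrix results, and the part of cell type in them was not tested.

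Of 18 integrin chains 11 rose and 5 fell, led by Itga1, a collagen receptor chain, which rose by 1.92 ± 0.11, and Itga6, a laminin receptor chain, which fell by 2.28-fold. The fall of Itga8 was lost without p53 Y202C replicate 2 (adjusted p = 0.0829). Of 23 matrix proteases and inhibitors 13 rose and 8 fell. Mmp9 was at 0.0589, 0.154 and 0.193 CPM in p53 KO and 1.42, 2.35 and 2.67 CPM in p53 Y202C, and Adamts9 rose by 3.24 ± 0.13. Mmp3 had 2 reads in all in p53 KO and a ratio of 28.9 (95% counting interval 7.48 to 246). The membrane protease gene Mmp15 fell by 4.798-fold. The urokinase receptor Plaur and its ligand Plau fell by 3.54-fold and 1.58-fold.

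Receptor tyrosine kinases showed no common direction, with 9 of 20 higher and 8 lower (34.3% of all genes in each direction). Pdgfra, the receptor of platelet-derived growth factor and a marker of both oligodendrocyte precursors and fibroblasts, went from 2.17, 3.202 and 3.902 CPM to 139, 136 and 155 CPM (log2 fold change 5.54 ± 0.14 (SE), adjusted p = 5.17e-20), and Pdgfrb from 183, 198 and 198 CPM to 670.2, 783 and 722 CPM (log2 fold change 1.91 ± 0.07 (SE), adjusted p = 1.82e-16). The neurotrophin receptor Ntrk3 rose by 2.61 ± 0.12 and Erbb3 by 2.31 ± 0.35, and the ephrin receptor Epha2 fell by 2.83-fold. Of 22 growth factor ligands 7 rose and 9 fell. Igf1 rose by 2.11 ± 0.11 and Fgf2 by 1.62 ± 0.12, while Pdgfd fell by 3.93-fold.

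In the TGF-beta and BMP pathway 14 of 28 genes rose and 7 fell. The ligand Bmp4 went from 8.85, 9.97 and 11.8 CPM to 133, 131 and 128 CPM (log2 fold change 3.67 ± 0.12 (SE), adjusted p = 1.08e-17). Among the antagonists of these ligands Fst (follistatin) rose by 3.53 ± 0.14, Nog (noggin) by 2.99 ± 0.27 and Grem1 by 2.72 ± 0.11. Of the Id genes, which BMP signalling induces, Id1 (log2 fold change 0.34), Id2 (1.68) and Id3 (0.39) rose and Id4 (-1.40) fell.

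In the Wnt pathway 18 of 33 genes rose and 10 fell. Axin2, a feedback inhibitor that canonical Wnt signalling induces, went from 1.08, 1.51 and 1.05 CPM to 9.76, 11.2 and 11.6 CPM (log2 fold change 3.17 ± 0.17 (SE), adjusted p = 6.03e-14). The ligand Wnt2 rose by 2.90 ± 0.13 and Wnt4 by 2.81 ± 0.27, and the receptor Fzd1 by 2.41 ± 0.10. Dkk2, a secreted modulator of the Lrp receptors, went from 116, 123 and 111 CPM to 8.53, 9.101 and 8.31 CPM (log2 fold change -3.75 ± 0.07 (SE), adjusted p = 1.56e-22), and Wnt10b fell by 6.25-fold. Of 13 Notch pathway genes 6 rose and 5 fell (34.3% of all genes in each direction). Notch3 rose by 2.42 ± 0.18 and the ligand Jag1 by 1.52 ± 0.07. Nrarp fell, but an antisense gene overlaps 79.4% of its exon length.

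Genes of cell guidance moved both ways. Of 38 semaphorins, plexins, slits and related genes 13 rose and 20 fell (34.3% of all genes in each direction). Beyond a log2 fold change of 1 in size 9 rose and 7 fell (9.35% and 6.38% of all genes). The list summed to 3100.3 to 3271 CPM in p53 KO and 3259.9 to 3365 CPM in p53 Y202C. Slit3, at 2.63 ± 0.11, and Sema6d, at 2.49 ± 0.19, were among the rises, and Plxna4, at -2.78 ± 0.24, and Slit1, at -2.68 ± 0.46, among the falls. Of 15 cadherins and adhesion molecules 6 rose and 9 fell. Cdh2 (N-cadherin) fell from 579, 564 and 541 CPM to 258, 215 and 218 CPM (log2 fold change -1.28 ± 0.08 (SE), adjusted p = 4.79e-13), Vcam1 fell by 2.81-fold, and Cdh1 (E-cadherin) rose from 0.0785, 0.0512 and 0.0193 CPM to 0.989, 1.17 and 1.96 CPM. Of 18 transcription factors of mesenchymal states 10 rose and 2 fell, led by Prrx2, which rose by 2.70 ± 0.07, and Foxc1, by 1.24 ± 0.05. The fall of Twist2 (-0.30) was lost without p53 KO replicate 2 (adjusted p = 0.0798) or p53 Y202C replicate 3 (adjusted p = 0.0585), which leaves 1 of 18 lower, and a further gene's exons overlap 46.5% of its length.

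Cholesterol synthesis was higher in 18 of 24 genes and lower in 4 (median 0.49). Its enzymes Tm7sf2, at 1.52 ± 0.13, Ebp, at 0.94 ± 0.09, and Nsdhl, at 0.94 ± 0.07, rose most, while Srebf2, a transcription factor that drives the pathway, was among those that fell (log2 fold change -0.18). Glycolysis and hypoxia genes were lower in 18 of 24 and higher in 2 (median -0.64). Slc16a3, the exporter of lactate, went from 123, 124 and 119.8 CPM to 11.9, 13.1 and 10.3 CPM (log2 fold change -3.38 ± 0.10 (SE), adjusted p = 2.36e-18). The glucose transporter Slc2a1 fell by 2.09-fold, Eno1 by 2.32-fold and Vegfa by 1.78-fold.

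Of 28 lysosomal genes 20 rose and 4 fell (median 0.43), with Ctsh at 1.76 ± 0.08 and Arsa at 1.71 ± 0.10, and Lamp1 fell by 1.58-fold. Of 25 genes of oxidative phosphorylation 7 rose and 9 fell (34.3% of all genes in each direction). None moved by a log2 fold change beyond 1 in either direction. Without p53 Y202C replicate 2 only 4 of the 25 rose. Of 19 Nrf2 targets 8 rose and 9 fell, with the ferritin chain Fth1 rising by 1.56 ± 0.09 and thioredoxin reductase Txnrd1 falling by 2.05-fold. Of 22 genes of endoplasmic reticulum stress and Atf4, 3 rose and 12 fell, the largest fall being that of Cth, an enzyme of cysteine synthesis, by 2.36-fold. Of 20 immediate early genes 5 rose and 11 fell, with Egr2 at 2.72 ± 0.13 and Ier2 at -1.31 ± 0.10.

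Genes of developmental identity included some of the largest falls. Of 8 glial progenitor genes tested, 5 fell and 1 rose (2 without p53 Y202C replicate 3). Sox2, a factor of neural stem cells, had 157, 124 and 169 reads in the p53 KO libraries and 2, 0 and 0 reads in the p53 Y202C libraries, a ratio of 156 (95% counting interval 42.9 to 1292). The intermediate filament gene Nes (nestin) went from 458, 423 and 403 CPM to 135, 136 and 125 CPM (log2 fold change -1.70 ± 0.11 (SE), adjusted p = 1.6e-12) and Cd44 from 822, 839.6 and 757 CPM to 305, 273 and 303 CPM. Of 30 homeobox genes 16 rose and 11 fell. Hoxa5 had 2 reads in all in p53 KO and a ratio of 86.6 (95% counting interval 23.4 to 723). Dlx5 went from 0.0393, 0.0256 and 0.0386 CPM to 1.96, 2.27 and 2.56 CPM and Pax3, a factor of the neural crest, from 0.275, 0.154 and 0.2897 CPM to 4.199, 3.66 and 5.29 CPM. Msx1 fell by 4.52-fold.

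Among the 12 astrocyte markers 6 rose and 1, Sox9, fell. The glutamate transporter gene Slc1a3 went from 15.1, 20.2 and 20.9 CPM to 41.8, 39.3 and 46.9 CPM (log2 fold change 1.19 ± 0.10 (SE), adjusted p = 4.45e-10), and its relative Slc1a2 from 0.245, 0.282 and 0.377 CPM to 1.101, 1.36 and 2.01 CPM. Aldh1l1, the enzyme gene often used to mark astrocytes, did not pass (adjusted p = 0.114), and passed without p53 KO replicate 3 (adjusted p = 0.0496) or p53 Y202C replicate 1 (adjusted p = 0.0206). Of 12 fibroblast and mural genes 6 rose and 4 fell, with Dcn (decorin) at 1.55, 2.93 and 2.12 CPM in p53 KO and 15.4, 13.999 and 16.7 CPM in p53 Y202C and Des (desmin) at 8.63, 9.901 and 9.43 and 0.803, 0.572 and 0.767 CPM. The other cell type lists were thinly covered. Of 10 oligodendrocyte markers 5 could be tested, 4 higher and 1 lower, with Pdgfra above the largest rise. Of 10 microglial markers 8 were not in the count table, and the 2 tested both rose. Csf1r rose to 2.59, 3.18 and 3.02 CPM and Tmem119 to 69.4, 85.04 and 75.4 CPM. The list summed to 43.1 to 46.8 CPM in p53 KO and 71.97 to 88.2 CPM in p53 Y202C, nearly all of it Tmem119. Its mean sum was 97.4 CPM in f1 p53 Y217C and 107.7 CPM in f1 p53 R172H, where the interferon list summed to 239.9 and 3082 CPM. The part of microglia in the interferon and cytokine results was not tested. Of 4 neuronal markers 2 rose and 2 fell, with Map2 down from 37.7, 43.1 and 41.8 CPM to 3.14, 2.61 and 3.29 CPM, and of 4 endothelial markers 1 rose and 3 fell.

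Imprinted genes, which are read from 1 parental copy, were mostly lower. Of 22 tested, 15 fell and 5 rose, with a median of -0.93, and 11 fell by a log2 fold change beyond -1 (6.38% of all genes). Grb10, an adaptor that restrains insulin signalling, went from 630.5, 623 and 623 CPM to 81.7, 72.5 and 81.6 CPM (log2 fold change -2.99 ± 0.06 (SE), adjusted p = 2.67e-21). Phlda2, a placental growth gene, fell most in fold, from 1.14, 1.13 and 0.811 CPM to 0.0373, 0 and 0.0256 CPM. The non-coding RNA H19 went from 460.0, 483 and 523 CPM to 127, 135 and 139 CPM, and its neighbour Igf2, a fetal growth factor, from 19.7, 19.3 and 19.5 CPM to 1.47, 1.68 and 2.21 CPM; exons of other genes overlap 64.5% of Igf2. Nnat fell by 18.5-fold and Ndn by 14.5-fold. Dlk1 went the other way, from 2.04, 2.38 and 1.99 CPM to 15.6, 18.3 and 14.3 CPM, while Meg3, transcribed from the other parental copy of the same domain, fell by 1.69-fold.

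Of 10 genes of X inactivation and escape from it, 5 rose and 3 fell. Xist, the RNA that coats the inactive X chromosome, was at 278, 242 and 274 CPM in p53 KO and 654, 421 and 711 CPM in p53 Y202C (log2 fold change 1.17 ± 0.15 (SE), adjusted p = 2.41e-07), with replicate 2 the lowest of the p53 Y202C libraries but above every p53 KO library; exons of other genes, Tsix on the opposite strand among them, overlap 12.6% of its exon length. Malat1, another RNA held in the nucleus, was at 259, 298 and 332 CPM in p53 KO and 516, 307 and 496 CPM in p53 Y202C, so that it too was lowest in replicate 2, which lay within the p53 KO range. The part of nuclear RNA content in the Xist result was not tested. The rise of Ftx was lost without p53 Y202C replicate 1 (adjusted p = 0.0668) and the fall of Utp14a without replicate 2 (adjusted p = 0.109). Without p53 Y202C replicate 1, 3 of the 10 rose.

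Beyond the lists, the largest rises were in genes that the p53 KO line hardly expressed. Mgst1, a glutathione transferase of membranes, went from 0.0589, 0.0256 and 0.135 CPM to 21.7, 30.5 and 26.2 CPM (log2 fold change 8.38 ± 0.29 (SE), adjusted p = 1.8e-17). Aldh3a1, an aldehyde dehydrogenase, went from 0.118, 0.154 and 0.155 CPM to 22.3, 27.8 and 24.2 CPM (log2 fold change 7.44 ± 0.31 (SE), adjusted p = 7.34e-16). The kininogen gene Kng1 had 0, 4 and 2 reads in p53 KO and 270, 349 and 449 reads in p53 Y202C. Its near copy Kng2 had 2, 0 and 0 and 118, 117 and 161 reads, so the split of reads between the pair is uncertain.

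Agtr2, a receptor of angiotensin II, had 0, 0 and 2 reads in p53 KO and 151, 168 and 279 reads in p53 Y202C, a ratio of 431 (95% counting interval 119 to 3570.1). Sostdc1, a secreted antagonist of BMP, had a ratio of 231 (95% counting interval 40.8 to 9173). Lrmda, Ifi206 and Serpina3n had 0 reads in every p53 KO library, and were at least 42.3-fold, at least 40.9-fold and at least 30.3-fold higher in p53 Y202C against a floor of 3 counts over the line. The highest level of any of them in p53 Y202C was 0.616 CPM, that of Lrmda in replicate 1.

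The largest falls were those of Zdbf2, an imprinted gene that was on none of the lists (chromosome 1, 63273265 to 63314576), from 25.3, 22.3 and 20.2 CPM to 0.0373, 0.0155 and 0.0512 CPM (log2 fold change -9.25 ± 0.35 (SE), adjusted p = 1.26e-16), and Lce1h, a gene of the epidermal cornified envelope, from 10.4, 9.67 and 9.75 CPM to 0.0373, 0 and 0.0256 CPM (log2 fold change -8.83 ± 0.58 (SE), adjusted p = 2.82e-12). Lor (loricrin), of the same envelope, went from 2.41, 2.57 and 1.83 CPM to 0, 0.0618 and 0 CPM. Xirp2, an actin-binding gene of muscle, went from 10.97, 11.4 and 8.68 CPM to 0.149, 0.0309 and 0.0512 CPM, and Gatm, of creatine synthesis, from 6.32, 6.48 and 7.13 CPM to 0.0747, 0.0927 and 0.0512 CPM. Rpl39l went from 5.02, 4.73 and 5.196 CPM to 0.0373, 0 and 0.0767 CPM, and being a near copy of Rpl39 its count is uncertain.

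Wfdc2 had a ratio of p53 KO over p53 Y202C of 366 (95% counting interval 101 to 3029), and the neural factor Pou3f3 one of 222 (95% counting interval 39.5 to 8788). The transcription factors Sall1 and Sall3 and the potassium channel gene Kcnn2 had 0 reads in the 3 p53 Y202C libraries, and were at least 20.6-fold, at least 8.55-fold and at least 18.5-fold lower than in p53 KO, where they were themselves read at no more than 0.353 CPM.

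The same mutation was also compared with p53 KO in the m1 culture, where 10529 genes (73.0%) passed the threshold, 5425 higher (37.6%) and 5104 lower (35.4%). The difference between the f1 and m1 effects was tested as an interaction and passed for 9805 genes (68.0%), with a more positive effect in f1 for 4830 (33.5%) and a more negative one for 4975 (34.5%). In all, 3328 genes passed in both cultures in opposite directions. Each culture stands for 1 pool of pups of 1 sex. The p53 Y202C lines also differed in Trp53, read at 572 to 605 CPM in f1 and 2259 to 2444 CPM in m1. Sex, culture, line and Trp53 level therefore cannot be told apart.

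In m1 the interferon list moved both ways. There 6 of its 24 genes were higher and 11 lower (median -0.47), and in the interaction 22 were more positive in f1 and 2, Ifit2 and Bst2, more negative. Isg15 was at 4.55 ± 1.04 CPM (SD, n = 3) in m1 p53 KO and 4.45 ± 1.504 CPM in m1 p53 Y202C, and the effect in f1 minus that in m1 was 2.52 ± 0.29 (SE), adjusted p = 5.16e-08 on the log2 scale. Cytokines were higher in 5 and lower in 10 of 20 in m1, and 15 were more positive in f1. Cholesterol synthesis was higher in 1 and lower in 20 of 24 genes in m1 (median -0.76), and 20 were more positive in f1. Endoplasmic reticulum stress and Atf4 genes were higher in 16 and lower in 5 of 22 in m1 (median 1.01), and 15 were more negative in f1.

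Some other lists had the same main direction in both cultures. Mitosis genes were lower in 23 of 24 in m1 as well (median -1.28), and 20 had a more positive effect in f1 than in m1. For DNA replication 21 of 24 were lower in m1 (median -1.02) and the effect in f1 was more positive in 13 and more negative in 3. Lysosomal genes were higher in 24 of 28 in m1 (median 0.84) and 19 had a more negative effect in f1. Imprinted genes were lower in 14 of 22 in m1 (median -1.56). Slc16a3 fell in both, with log2 fold changes of -3.38 in f1 and -3.58 in m1. The collagen I gene Col1a1 rose by 0.51 (log2) in f1 and fell in m1, with a log2 fold change of -2.36, and the difference between the effects was 2.88 ± 0.11 (SE), adjusted p = 1.13e-16.

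**Figure D4:**
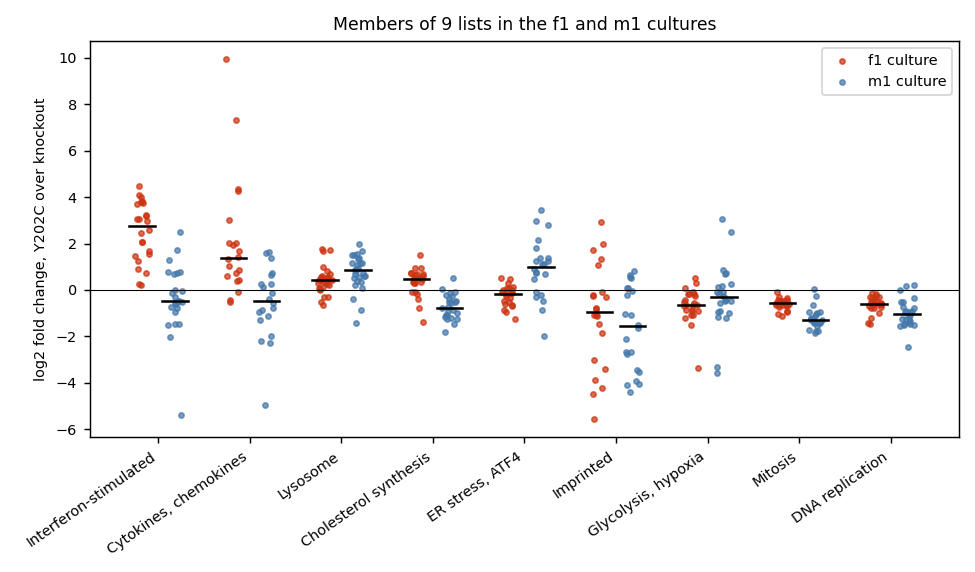
Fold change of each member of 9 gene lists between p53 Y202C and p53 KO (log2, vertical axis), in the f1 culture (red) and the m1 culture (blue), with a bar at each median. The interferon medians are 2.76 in f1 and -0.47 in m1, and the mitosis medians -0.58 and -1.28.

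Within the f1 culture p53 Y202C was compared with p53 R172H, which went through the same retroviral vector and sort. Trp53 was read at 572 to 605 CPM in p53 Y202C and 1890 to 2020 CPM in p53 R172H. The mutation, the line and the Trp53 level therefore cannot be told apart. In this contrast 8589 genes (59.5%) differed, 4291 higher (29.7%) and 4298 lower (29.8%) in p53 Y202C. All 24 interferon-stimulated genes were lower in p53 Y202C than in p53 R172H, with a median of -2.77. Isg15 was at 249.9 ± 43.1 CPM (SD, n = 3) in p53 R172H and 24.3 ± 3.702 CPM in p53 Y202C (log2 fold change -3.36 ± 0.19 (SE), adjusted p = 2.62e-13). Of the cytokines 13 of 20 were lower and 4 higher. Il1rn was at 1075 ± 75.5 CPM in p53 R172H (log2 fold change -3.60 ± 0.08 (SE), adjusted p = 2.4e-20), and was below 0.8 CPM on average in each of the 6 lines other than these. Il33 and Ccl20 were among those higher in p53 Y202C, Il33 against 8.64 ± 0.628 CPM in p53 R172H (log2 fold change 3.36 ± 0.17 (SE), adjusted p = 4.33e-14). Of the 17 MHC class I genes 13 were lower and 1 higher.

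The cell cycle lists differed in fewer genes. Among mitosis genes, 5 exceeded their p53 R172H level and 6 fell short of it (median 0.04), and of the DNA replication genes 5 and 6 (median -0.11). Pdgfra was at 144 ± 10.3 CPM in p53 Y202C and 165 ± 14.1 CPM in p53 R172H (log2 fold change -0.20 ± 0.11 (SE), adjusted p = 0.116). Elastin differed widely between these lines, with 76.1 ± 11.4 CPM in p53 Y202C and 0.721 ± 0.09599 CPM in p53 R172H (log2 fold change 6.73 ± 0.21 (SE), adjusted p = 3.49e-18). Its mean was at most 2.45 CPM in the lines without p53 Y202C. Myo5b, a myosin of vesicle transport, and Ablim3, an actin-binding gene, were higher by log2 fold changes of 8.02 and 7.17, Gsc had a ratio of 89.4 (95% counting interval 24.2 to 747), and Fam78b, with 0 reads in p53 R172H, was at least 151-fold higher.

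Ccser1 had 0 reads in p53 Y202C and was at least 17.4-fold higher in p53 R172H. Cnmd, Myh2 and Gbp9, an interferon-induced GTPase, were lower in p53 Y202C by log2 fold changes of -7.91, -7.88 and -7.73, from mean levels in p53 R172H of 7.72, 9.82 and 16.4 CPM.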

How the data were processed

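Reads were aligned with STAR 2.5.1a (submitters' processing notes) to the Ensembl mouse primary assembly and counted per gene with featureCounts, keeping uniquely aligned, unambiguous reads. The authors deposited raw counts of 14427 genes in 24 libraries; the strand setting is not given in the sources used here. Identifiers were matched to GENCODE M21 (GRCm38), which named 14350 of them; 77 kept the identifier.

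The quasi-likelihood model of edgeR 4.0.16 (under R 4.3.3) was fitted with 1 mean per line and TMM scaling across the 24 libraries (Benjamini-Hochberg adjustment over all genes, threshold 0.05). A low-count filter (over 1 CPM, 2 or more libraries) removed 0 genes. Tests were checked on simulated counts. Alternatives used limma 3.58.1 (voom with quality weights), DESeq2 1.42.0, other filters, thresholds and scalings, a replicate block and leaving out each library. Summaries used Python 3.11.15, and promoters came from RefSeq (GRCm38.p6). At the floor of 3 counts and the depths given, folds against lines with few reads carry counting error only. An overlap of exons was computed on any strand.

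The 36 gene lists (764 genes, 686 in the table) and the comparisons were chosen with earlier results of these data known. Named genes were Trp53, the astrocyte markers, the 12 largest rises and 12 largest falls past the threshold (at least 10 counts in each library of the higher line, libraries of the lines not overlapping, no clone names), up to 3 rises and 3 falls per list, 10 genes of opposite effect in f1 and m1 (5 in each direction) and 10 against p53 R172H; some of these are not reported here, and others described are list members added after their values were seen.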

Additional observations from a re-analysis of the deposited data

Results flagged for a closer look

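The effect of p53 Y202C relative to p53 KO was tested for a difference between the f1 and m1 cultures by an interaction term (edgeR, adjusted over all genes), and 10 genes that passed in both cultures in opposite directions are given here, the effect in f1 minus that in m1 on the log2 scale, ± SE. Of the 5 more positive in f1, Nog differed by 10.54 ± 0.86, Ndnf by 9.88 ± 0.33, Enpep by 9.70 ± 0.46, Il33 by 9.60 ± 0.30 and Cxcl5 by 9.24 ± 0.39. The neurotrophic gene Ndnf was at 0.267 ± 0.0474 CPM (SD, n = 3) in f1 p53 KO and 40.1 ± 2.23 CPM in f1 p53 Y202C, against 0.935 ± 0.0695 and 0.153 ± 0.0633 CPM in m1. Enpep, a peptidase of angiotensin, was at 0.301 ± 0.141 and 14.1 ± 1.45 CPM in f1, against 0.789 ± 0.0614 and 0.0462 ± 0.0394 CPM in m1. Nog had 0 reads in m1 p53 Y202C, where it was at least 20.9-fold lower than in m1 p53 KO, so its fitted difference is not a measured fold.

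Of the 5 more negative in f1, Shtn1 differed by -10.61 ± 0.21, Wfdc2 by -10.13 ± 0.89, Sall1 by -9.93 ± 0.86, Pou3f3 by -9.76 ± 0.37 and Sox2 by -9.71 ± 0.28. Shtn1, a gene of axon formation, was at 6.82 ± 0.825 and 0.111 ± 0.0499 CPM in f1, against 3.02 ± 0.417 and 81.5 ± 4.5999 CPM in m1. Sox2 was at 24.5 ± 1.86 CPM in m1 p53 KO and 149.8 ± 4.02 CPM in m1 p53 Y202C, where f1 p53 KO held 1.59 ± 0.0454 CPM. Pou3f3 was at 23.01 ± 2.06 and 116 ± 3.54 CPM in m1. The p53 KO lines of f1 and m1 thus themselves held different levels of Sox2 and Pou3f3, the latter at 1.12 ± 0.194 CPM in f1 p53 KO. The p53 KO libraries did not overlap in Il33 (0.452 to 0.715 CPM in f1, 9.68 to 14.4 in m1) or Sall1 (0.261 to 0.353 and 7.46 to 8.39). Nor did they in Wfdc2 (3.32 to 4.02 and 0.0305 to 0.121). In m1, Wfdc2 had only 10, 10 and 4 reads in p53 KO and 16, 26 and 18 in p53 Y202C. In f1 p53 Y202C, Sall1 had 0 reads and Wfdc2, Pou3f3 and Sox2 at most 2 in all, so their fitted differences are not measured folds either.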

How the results depend on the processing

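The 9891 genes differing between f1 p53 Y202C and f1 p53 KO became 5435 with an absolute log2 fold change above 0.5 and 2269 above 1. The 8589 against f1 p53 R172H became 4003 and 1902, and the 9805 of the interaction 3910 above 1; these are smaller by construction. With the replicate number as a block over all libraries, the counts were 9791, 8445 and 9684 (9388, 6039 and 9649 with only the lines compared), and same-numbered libraries of f1 p53 Y202C and f1 p53 KO correlated at 0.0998, 0.00444 and 0.0618 in their deviations, those of f1 p53 Y202C and f1 p53 R172H at -0.166, -0.249 and -0.313, and those of f1 and m1 p53 Y202C at -0.147, 0.136 and 0.107. In none of these did every pair pass 0.1, and the main fit used no pairing. So few pairs cannot show whether libraries with the same number shared a batch. With only its lines fitted, the contrast with f1 p53 R172H gave 7525 genes without the block, beside 6039 with it. Without 1 library each, the counts ranged from 9277 to 9707, from 7897 to 8579 and from 9451 to 9815. Under limma, DESeq2, other size factors, filters, thinned counts, an adjusted p of at most 0.01 and without ribosomal protein genes they stayed within 1.5 times. Among the list counts 6 of 576 moved by more (limma found 2 cytokines lower), and among the named genes none changed direction: 2611 of 2623 values kept their call, 10 lost it and 2, both Aldh1l1, gained it. Twist2 also lost its call when only its lines were fitted. Depth limits genes at a few reads, for which ratios or bounds are given.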

Other observations

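Chromosomes differed in their median log2 fold change between f1 p53 Y202C and f1 p53 KO. Over the 938 genes of chromosome 4 the median was -0.31, with 54.7% of genes lower and 17.1% higher, and over the 809 of chromosome 9 and the 784 of chromosome 8 it was -0.25 and -0.22. Over the 692 genes of chromosome 6 it was 0.21, with 49.9% higher and 19.8% lower. In m1 the medians of chromosomes 4 and 6 were 0.29 and -0.10, and against f1 p53 R172H chromosome 4 was at -0.31. DNA copy number was not analysed here. The 14 mitochondrial genes had a median of 0.57, with 12 of 14 higher, and p53 Y202C replicate 2 held the lowest share of their counts in that line.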
